A study of Mus musculus with 13 samples.

Results

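The 13 arrays of the series were used together to describe the genotype effect that esophagus and forestomach share. The members are all 13 of 13 arrays, chosen because each is esophagus or forestomach of a mouse that is either p120 flox/flox or p120 +/+, and the effect described is the average difference between these genotypes with tissue as a covariate. Every animal carried L2-Cre, in which a viral promoter used for squamous epithelium drives the recombinase, on a mixed C57Bl/6 and 129 background, so the controls differ from the flox/flox animals in having wild-type alleles of the p120-catenin gene, Ctnnd1. Control esophagus came from animals 214, 216 and 217, and control forestomach came from the same 3 animals. Flox/flox esophagus came from animals 193, 307, 313 and 335, and flox/flox forestomach came from 3 further animals, 412, 426 and 510. The flox/flox forestomach samples are all labelled as masses, so there genotype and the presence of a mass cannot be told apart, and ages were not given in the sources used here. In all, 10 animals stand behind the 13 arrays: the 3 controls gave both tissues and each of the 7 flox/flox animals gave 1 array.

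p120-catenin binds the cytoplasmic tail of classical cadherins and holds them at the cell surface. Esophagus and forestomach of the mouse are lined by the same kind of keratinized stratified squamous epithelium, in which basal cells divide and the cells above them differentiate, make a cornified surface and carry high levels of detoxifying and lipid enzymes. Such epithelia replace part of that programme with another set of keratins and secreted proteins when they are wounded or hyperproliferative.

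On average over both tissues, flox/flox epithelium had higher levels of some wound-type keratins and chaperones of the endoplasmic reticulum (ER). Levels of some aldehyde, glutathione and fatty acid enzymes were lower. In the average effect, called rises made up 7 of 22 genes in a list of stress keratins and alarmins and 7 of 26 ER genes. Called falls made up 4 of 24 genes of aldehyde and retinol metabolism, 7 of 30 glutathione genes and 13 of 33 genes of fatty acid oxidation and the peroxisome. Of these calls 3, 6, 3, 5 and 6, in that order, had no overlap between the genotypes in either tissue. In 1 limma fit of the 4 group means, 2 genes were called in esophagus and 1700 in forestomach, and 0 passed when both tissues had to change. From the arrays of 1 tissue alone, limma called 0 genes in esophagus and 452 in forestomach. In esophagus 1465 then had an unadjusted p under 0.05. Krt6a rose most among the shared genes, 24.3-fold, and the carboxylesterase Ces1f fell most, 7.44-fold. Of 15875 genes tested, 787 were called in the average genotype effect, that is, had a limma adjusted p under 0.05. The levels of 186 were higher in flox/flox epithelium, 1.17% of the genes tested, and those of 601 were lower, 3.79%. All 787 had the same direction in both tissues. For 437 the flox/flox and control arrays also did not overlap in either tissue, 92 of them higher (0.58% of the genes tested) and 345 lower (2.17%), and these 437 are called shared here. Without the adjusted p, 164 genes were higher and 509 lower with no overlap in either tissue. Among the shared genes, 23 were at least 2-fold higher on average and 47 at least 2-fold lower. The median change of the shared higher genes was 0.48 in esophagus and 0.68 in forestomach on the log2 scale, and that of the shared lower genes was -0.42 and -0.73, while the median of all genes for the average effect was 0.0077. For 381 of the 437 the forestomach difference was the larger one. The direction in each tissue follows in part from how these genes were chosen and shows nothing about their stability.

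**Figure D1:**
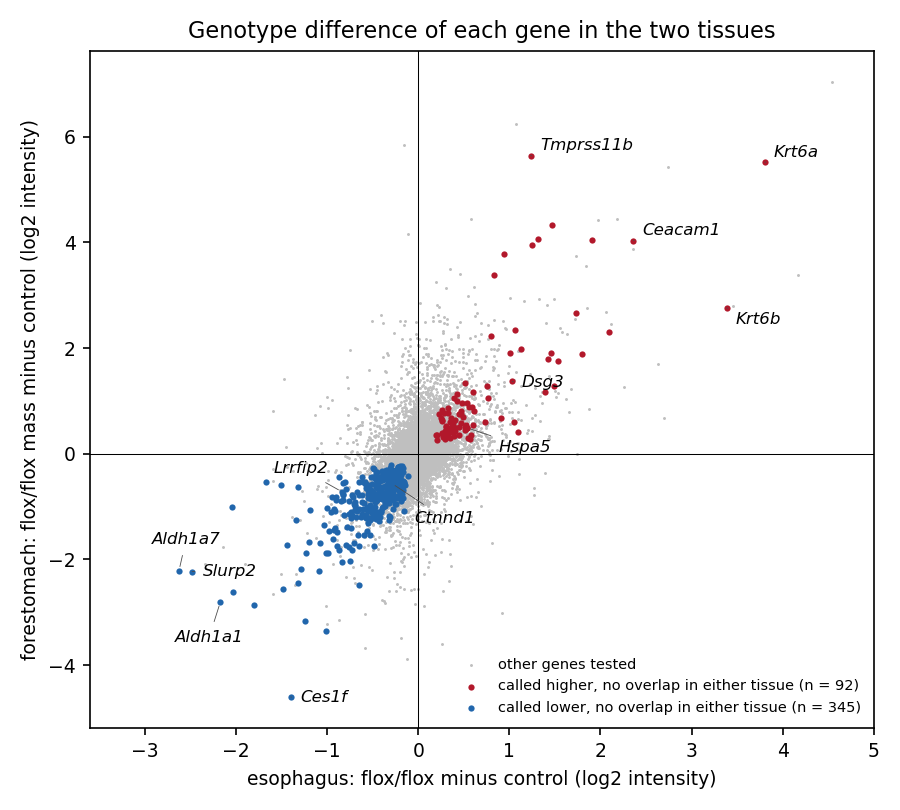
Each point is 1 of the 15875 genes tested, with the flox/flox minus control difference of group means in esophagus on the horizontal axis and in forestomach on the vertical axis, both in log2 intensity. Red and blue points are the 92 higher and 345 lower shared genes, and Krt6a lies far to the upper right with 3.81 and 5.52.

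The count rests on few control animals and on taking their arrays as independent. The control arrays of an animal deviated together from their group means (correlation across genes 0.401 for animal 214, 0.398 for 216 and 0.315 for 217, against -0.425 to 0.129 between different animals). Deviations from a mean of 3 arrays sum to 0, so the values between animals are not independent of those within an animal. With the animal as a random block, 155 genes were called, all among the 787, of which 25 were higher (0.157%) and 130 lower (0.819%), and 139 of the 437 shared genes were among them. With only 1 array for each control animal, limma called 0 genes when the esophagus array of 214 was kept and 1 when its forestomach array was kept, with 2213 and 2018 genes at an unadjusted p under 0.05, and 3522 in the fit of all arrays. Leaving out both arrays of control animal 214, 216 or 217 left 78, 9 and 0 calls, the last with 2462 genes at an unadjusted p under 0.05. Among single arrays, the total was 479 and 134 without the esophagus of controls 216 and 217, 77, 46 and 46 without the forestomach of controls 214, 216 and 217, and 354, 1267 and 152 without flox/flox esophagus 193, 307 and 335. Of the shared genes, 43 were called without any single array, 10 higher and 33 lower. The sexes were also unequal: from Xist and Y-linked transcripts 1 of 3 control animals and 5 of 7 flox/flox animals were female, and with sex as a covariate 11 genes were called higher and 38 lower.

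**Figure D2:**
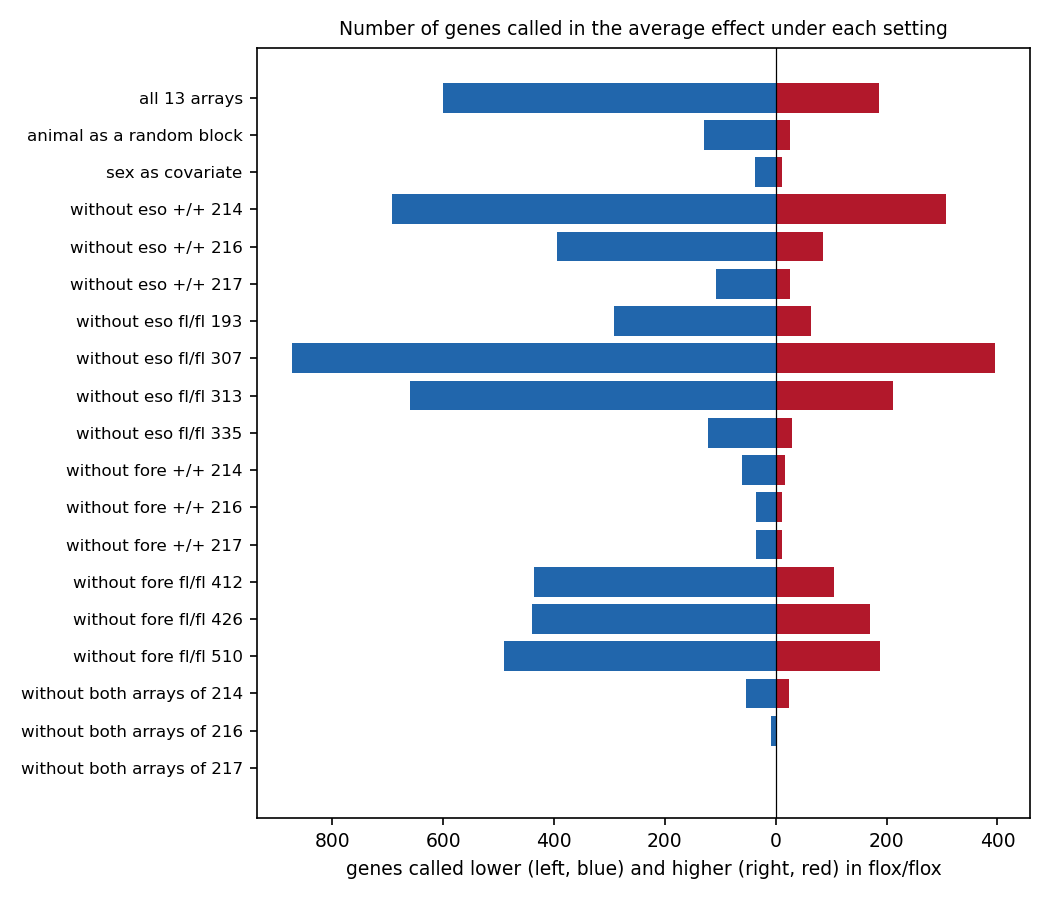
Bars show the number of genes called lower (blue, to the left) and higher (red, to the right) in the average effect with all 13 arrays, with the animal as a block, with sex as a covariate, and without the arrays named at the left, where eso is esophagus, fore is forestomach, +/+ is control and fl/fl is flox/flox. The bars are shortest without forestomach control 216 or 217 and without both arrays of 216 or 217, where the last has none, and longest without flox/flox esophagus 307.

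A stricter reading asks that each tissue change by itself. With the larger of the p-values of the 2 tissues taken as the p of a gene, 0 genes passed after adjustment in limma (smallest adjusted p = 0.575), and 575 had an unadjusted value under 0.05, 158 higher and 417 lower. In the same fit of 4 group means, 2 genes were called in esophagus, both lower, and 1700 in forestomach, 366 higher and 1334 lower. Both comparisons share their control animals. Replicates spread widest in the masses, with a median SD per gene of 0.248, against 0.115 to 0.148 in the other groups. The fit takes 1 variance per gene over the 4 groups.

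In what follows, values are log2 intensities on single arrays, in the order 214, 216 and 217 for controls, 193, 307, 313 and 335 for flox/flox esophagus, and 412, 426 and 510 for the masses. A change is the average flox/flox minus control difference in log2 intensity with its fitted standard error (SE) over 6 control and 7 flox/flox arrays, followed by limma's adjusted p and by the difference in each tissue. The blocked p is limma's adjusted p with the animal as a random block, given where it does not pass 0.05.

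Ctnnd1 itself was among the shared lower genes. Its level was 10.21, 10.33 and 10.50 in control esophagus, 10.13, 9.95, 10.08 and 10.04 in flox/flox esophagus, 10.40, 10.14 and 10.23 in control forestomach and 9.66, 9.91 and 9.51 in the masses. The groups did not overlap in either tissue, but the levels remained high on every flox/flox array. It fell by 0.42 (SE 0.09, adjusted p = 0.0276, -0.29 in esophagus and -0.56 in forestomach), and the blocked p was 0.0558. Where its probes lie relative to the deleted exons is not stated, and a probe outside them would not check the deletion. The partners of p120-catenin at the adherens junction did not pass the test: the difference was 0.24 for E-cadherin (Cdh1, adjusted p = 0.0956), 0.90 for P-cadherin (Cdh3, 0.0559), 0.27 for beta-catenin (Ctnnb1, 0.0786), 0.08 for alpha-catenin (Ctnna1, 0.687) and 0.04 for plakoglobin (Jup, 0.79). The squamous keratins Krt5, of basal cells, and Krt13, of the layers above them, were bright on every array (12.32 to 13.01 and 13.38 to 14.13), with differences of 0.14 and -0.15 that did not pass the test.

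For each gene with the same direction in both tissues the larger of its p-values in the tissues was taken, and of the 6 genes with the smallest such value 5 fell and 1 rose. Lrrfip2, which acts in Wnt and Toll-like receptor signalling, was at 9.55, 9.77 and 9.88 in control esophagus, 8.92, 8.98, 8.95 and 8.72 in flox/flox esophagus, 8.94, 8.74 and 8.79 in control forestomach and 8.20, 8.11 and 7.99 in the masses. No flox/flox array reached the lowest control of its own tissue. It fell by 0.78 (SE 0.08, adjusted p = 0.00276, -0.84 in esophagus and -0.72 in forestomach). Bckdhb, a subunit of the dehydrogenase that breaks down branched-chain amino acids, was at 8.26, 8.20 and 8.31 in control esophagus, 7.21, 7.79, 7.34 and 7.57 in flox/flox esophagus, 8.85, 8.86 and 8.94 in control forestomach and 7.24, 7.56 and 7.69 in the masses, a fall of 1.06 (SE 0.13, adjusted p = 0.00654, -0.78 in esophagus and -1.39 in forestomach). Abhd12, a lipase that acts on lysophosphatidylserine, was at 9.60, 9.54 and 9.65 in control esophagus, 8.74, 8.99, 8.91 and 8.42 in flox/flox esophagus, 9.42, 9.50 and 9.55 in control forestomach and 8.35, 8.83 and 8.65 in the masses, a fall of 0.85 (SE 0.10, adjusted p = 0.00654, -0.83 in esophagus and -0.88 in forestomach). In both of these genes the controls lay close together in each tissue and the flox/flox arrays were spread below them. Lrp12, a receptor of the low-density lipoprotein receptor family, fell by 0.57 (SE 0.07, adjusted p = 0.00654, -0.56 in esophagus and -0.58 in forestomach), and Tbcel, related to a tubulin-folding cofactor, fell by 0.63 (SE 0.08, adjusted p = 0.00654, -0.54 in esophagus and -0.74 in forestomach). The gene that rose was Dsg3, the desmosomal cadherin of stratified epithelium, at 11.41, 11.39 and 11.52 in control esophagus, 12.81, 12.06, 12.27 and 12.77 in flox/flox esophagus, 10.94, 10.88 and 11.16 in control forestomach and 12.60, 12.004 and 12.49 in the masses. Every flox/flox array lay above every control of its tissue, and the rise was 1.19 (SE 0.14, adjusted p = 0.00654, 1.03 in esophagus and 1.37 in forestomach). All 6 genes were also called with the animal as a block and without any single array.

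**Figure D3:**
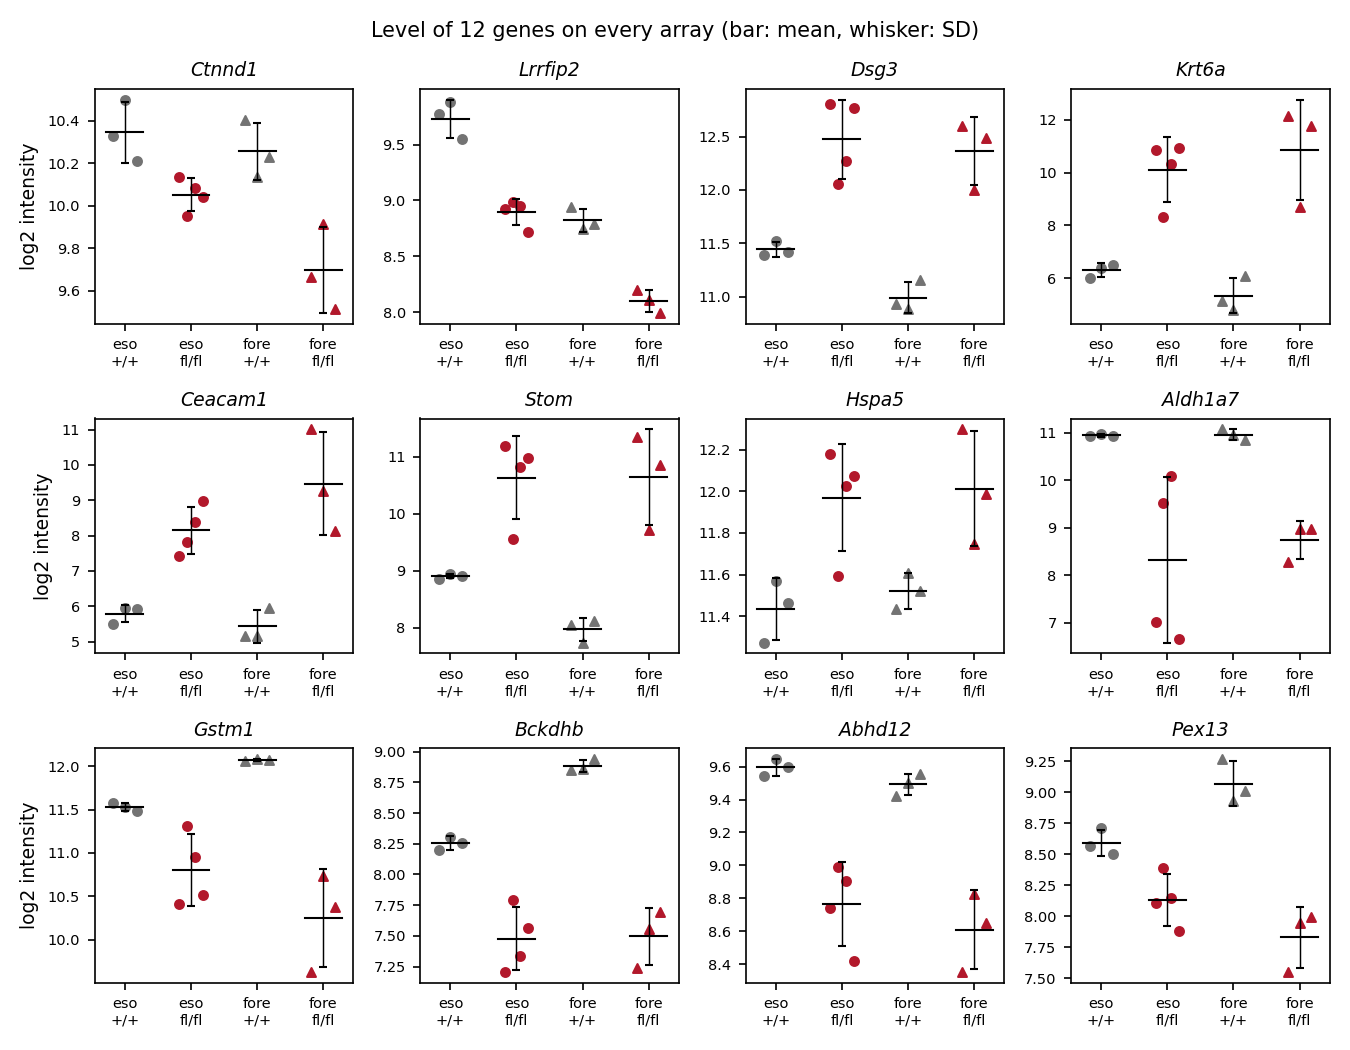
The level of 12 genes is shown on every array as log2 intensity, in control (grey) and flox/flox (red) esophagus (circles) and forestomach (triangles), with the mean as a bar and the SD as a whisker. The red points lie apart from the grey ones within each tissue in all 12 genes, narrowly so for Ctnnd1 and for Hspa5 in esophagus, where flox/flox 307 was at 11.60 and the highest control at 11.57.

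The largest shared rises were of epithelial stress keratins and proteins of the wounded or inflamed surface. Of 22 genes tested in the list of stress keratins and alarmins, 7 were called higher and 1 lower (Gjb6, a gap junction connexin, -0.54, blocked p of 0.084), and their median change was 1.99, against 0.0077 over all genes. Krt6a, a keratin switched on at wound edges and in hyperproliferative epithelium, was at 6.50, 6.01 and 6.40 in control esophagus, 10.87, 8.33, 10.33 and 10.91 in flox/flox esophagus, 5.15, 4.80 and 6.08 in control forestomach and 12.14, 8.69 and 11.76 in the masses. The lowest flox/flox array of each tissue, 307 and 426, still lay above all controls of that tissue. It rose by 4.60 (SE 0.61, adjusted p = 0.00683, 3.81 in esophagus and 5.52 in forestomach), 24.3-fold. Its close relative Krt6b was at 8.80, 8.04 and 9.55 in control esophagus, 13.28, 10.07, 12.30 and 13.08 in flox/flox esophagus, 10.77, 9.11 and 11.18 in control forestomach and 13.50, 12.28 and 13.56 in the masses and rose by 3.10 (SE 0.53, adjusted p = 0.0161, 3.39 in esophagus and 2.76 in forestomach). Krt17, another keratin of that response, rose by 2.26 (SE 0.52, adjusted p = 0.0332, 0.94 in esophagus and 3.77 in forestomach), with a blocked p of 0.0691. The probes of Krt6a and Krt6b may read both genes, since their sequences are alike.

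The other called rises in that list overlapped between the groups. Chil4, a secreted chitinase-like lectin, had the list's highest average difference and was at 6.28, 5.32 and 6.78 in control esophagus, 13.61, 5.28, 10.15 and 13.63 in flox/flox esophagus, 5.15, 4.93 and 8.74 in control forestomach and 13.69, 12.86 and 13.42 in the masses. It rose by 5.71 (SE 1.23, adjusted p = 0.0285, 4.54 in esophagus and 7.05 in forestomach), with a blocked p of 0.0542, but flox/flox esophagus 307 lay below all 3 esophagus controls. The calcium-binding alarmins S100a8 and S100a9, named after their values were seen, rose by 3.99 (adjusted p = 0.0326) and 3.11 (0.0371), with blocked p-values of 0.0615 and 0.0697, and 307 lay within the range of the controls. Krt16, also named after its values were seen, rose by 3.48 (adjusted p = 0.0399), with a blocked p of 0.079, 1.07 in esophagus and 6.24 in forestomach. With the animal as a block 2 of the 7 rises in the list were called, those of Krt6a and Krt6b, without flox/flox esophagus 307 there were 11, and with sex as a covariate there was 1.

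Several of the other large rises were of membrane proteins of the epithelial surface. Ceacam1, an adhesion molecule of the carcinoembryonic antigen family, was at 5.91, 5.51 and 5.94 in control esophagus, 7.43, 7.81, 8.38 and 8.97 in flox/flox esophagus, 5.16, 5.17 and 5.96 in control forestomach and 11.01, 9.26 and 8.13 in the masses and rose by 3.14 (SE 0.45, adjusted p = 0.0102, 2.36 in esophagus and 4.04 in forestomach). Stom, the membrane scaffold protein stomatin, was at 8.92, 8.87 and 8.94 in control esophagus, 11.19, 9.56, 10.82 and 10.97 in flox/flox esophagus, 8.05, 7.74 and 8.13 in control forestomach and 11.35, 9.71 and 10.86 in the masses and rose by 2.16 (SE 0.31, adjusted p = 0.0101, 1.73 in esophagus and 2.66 in forestomach). For Ceacam1 the gap between the nearest arrays of the genotypes was 1.49 in esophagus and 2.17 in forestomach, for Stom 0.61 and 1.58, and both calls held without any single array. Tmprss11g and Tmprss11b encode membrane-bound serine proteases of squamous epithelium. Tmprss11g was at 9.05, 8.95 and 9.40 in control esophagus, 11.43, 9.85, 11.07 and 11.83 in flox/flox esophagus, 6.45, 6.77 and 7.46 in control forestomach and 12.14, 9.65 and 11.02 in the masses and rose by 2.91 (SE 0.49, adjusted p = 0.0161, 1.91 in esophagus and 4.04 in forestomach). Tmprss11b rose by 3.29 (SE 0.76, adjusted p = 0.033, 1.23 in esophagus and 5.65 in forestomach), with a blocked p of 0.0695. Of 24 epithelial serine proteases and kallikreins tested, 3 were called higher and 1 lower, Klk5, a kallikrein of the cornified layer, with a change of -1.34 and a blocked p of 0.0675.

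Annexins and a gasdermin rose as well. Anxa8 and Anxa3, which bind phospholipids with calcium, rose by 2.80 (SE 0.60, adjusted p = 0.0276, 1.46 in esophagus and 4.33 in forestomach) and by 2.03 (SE 0.49, adjusted p = 0.0373, 0.83 in esophagus and 3.39 in forestomach), with blocked p-values of 0.0542 and 0.0738. Gsdmc, a gasdermin, a family of proteins that can form membrane pores, was at 10.34, 10.55 and 10.81 in control esophagus, 12.58, 10.95, 11.90 and 12.41 in flox/flox esophagus, 10.81, 10.87 and 11.13 in control forestomach and 12.56, 11.52 and 12.26 in the masses and rose by 1.29 (SE 0.25, adjusted p = 0.0224, 1.40 in esophagus and 1.18 in forestomach). The related Gsdmc2 rose by 2.19 (SE 0.57, adjusted p = 0.0463, 2.10 in esophagus and 2.31 in forestomach), with a blocked p of 0.0772. Slc6a14, an amino acid transporter, rose by 2.52 (SE 0.66, adjusted p = 0.0488, 1.25 in esophagus and 3.96 in forestomach), with a blocked p of 0.0869. Sprr2b, a precursor of the cornified envelope, was at 6.31, 6.30 and 7.25 in control esophagus, 9.80, 7.42, 7.95 and 8.50 in flox/flox esophagus, 9.31, 9.67 and 9.47 in control forestomach and 11.34, 11.02 and 11.73 in the masses and rose by 1.83 (SE 0.32, adjusted p = 0.0161, 1.79 in esophagus and 1.88 in forestomach). In esophagus 307 was again the lowest flox/flox array, at 7.42 beside a control at 7.25. Of 21 genes of caspases and cell death, 4 were called, all higher, Gsdmc, Casp4, Casp12 and Bak1, with a list median of 0.08. With the animal as a block Gsdmc alone of these was called, and the blocked p was 0.069 for Casp4, 0.0753 for Casp12 and 0.0769 for Bak1. In esophagus Casp4 and Casp12 overlapped between the groups. Without mass 426 the list had 2 calls, and with sex as a covariate none in limma, with 5 at an unadjusted p under 0.05.

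Cytokine receptors changed in opposite directions. Il13ra1, a subunit of the receptor for interleukin-13 and interleukin-4, was at 9.21, 9.06 and 9.39 in control esophagus, 10.65, 9.57, 10.35 and 10.36 in flox/flox esophagus, 8.23, 8.03 and 7.98 in control forestomach and 10.23, 9.73 and 9.98 in the masses. All flox/flox arrays lay above the controls, and it rose by 1.42 (SE 0.20, adjusted p = 0.00832, 1.01 in esophagus and 1.90 in forestomach). Il1r2, a decoy receptor that binds interleukin-1 without signalling, was at 10.48, 10.26 and 10.37 in control esophagus, 8.27, 9.92, 10.01 and 8.98 in flox/flox esophagus, 9.47, 9.61 and 9.45 in control forestomach and 7.61, 7.92 and 7.93 in the masses. All flox/flox arrays lay below the controls, and it fell by 1.37 (SE 0.25, adjusted p = 0.0185, -1.08 in esophagus and -1.69 in forestomach). Both were called with the animal as a block. In the list of cytokines and chemokines, 2 of 24 genes tested were called higher and 1 lower, and the other rise was of Cxcl16, a membrane-bound chemokine, with a blocked p of 0.0834.

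Chaperones and folding enzymes of the ER were among the called rises, with small changes. Of 26 genes tested in the list of ER chaperones and the unfolded protein response, 7 were called, all higher, 25 had an average difference above 0, 21 of them in both tissues, and the median was 0.42. The unfolded protein response raises transcription of such genes when unfolded proteins build up in the ER, in part through an element in which CCAAT and CCACG stand 9 bases apart and which the factor ATF6 binds together with NF-Y. The promoters of 4 of the called genes are shown to display this element, each from a short distance upstream of the element to the last base before the start of transcription, as RefSeq gives them for GRCm38.p6. Capitals mark the CCAAT and CCACG parts, or ATTGG and CGTGG where the element lies on the opposite strand.
Hspa5, chr2:34771990-34772089, plus strand: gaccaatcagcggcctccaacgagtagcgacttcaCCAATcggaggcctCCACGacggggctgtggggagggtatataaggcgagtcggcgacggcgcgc
Dnajc3, chr14:118937817-118937931, plus strand: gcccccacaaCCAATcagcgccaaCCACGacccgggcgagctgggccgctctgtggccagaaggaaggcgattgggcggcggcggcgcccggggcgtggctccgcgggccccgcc
Creld2, chr15:88819510-88819645, plus strand: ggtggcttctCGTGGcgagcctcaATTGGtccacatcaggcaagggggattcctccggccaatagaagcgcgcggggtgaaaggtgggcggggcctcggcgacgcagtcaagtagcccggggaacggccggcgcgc
Hsp90b1, chr10:86705445-86705666, minus strand: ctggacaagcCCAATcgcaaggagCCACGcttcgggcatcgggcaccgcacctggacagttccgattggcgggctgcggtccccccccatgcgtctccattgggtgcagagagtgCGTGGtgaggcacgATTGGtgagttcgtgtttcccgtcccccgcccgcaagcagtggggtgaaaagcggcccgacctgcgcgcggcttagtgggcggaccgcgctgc

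The element was searched on both strands in the 250 bases before the start, with both parts exact and a spacing of 9 bases, after the changes were known. It was found in 4 of the 6 called ER genes that have a promoter entry (66.7%), the genes printed above, and in 3 of 16 that were not called, Calr, Canx and Pdia6. Of all 12509 tested genes with an entry, 17 (0.136%) held it. Among these 17, 7 were in the ER list, and the 4 that were called, all higher, were the ER genes printed above. None outside the ER list was called. Over all genes tested 1.17% were called higher. Of the 17, 13 had a difference above 0 in both tissues, against 5290 of 15875 genes tested. All 7 genes of the ER list are among these 13. The count thus repeats in part the rise of that list and is no separate support. A match describes the letters and is no evidence that the factor binds there.

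Hspa5, the main ER chaperone of the heat shock protein 70 family, was at 11.46, 11.27 and 11.57 in control esophagus, 12.18, 11.60, 12.03 and 12.07 in flox/flox esophagus, 11.43, 11.61 and 11.52 in control forestomach and 12.30, 11.75 and 11.99 in the masses. It rose by 0.51 (SE 0.11, adjusted p = 0.0279, 0.54 in esophagus and 0.49 in forestomach), with a blocked p of 0.0542. Hsp90b1, its partner of the heat shock protein 90 family, was at 11.49, 11.09 and 11.33 in control esophagus, 12.09, 11.42, 11.97 and 11.93 in flox/flox esophagus, 11.07, 10.92 and 11.09 in control forestomach and 12.24, 11.71 and 11.84 in the masses and rose by 0.71 (SE 0.13, adjusted p = 0.0186, 0.55 in esophagus and 0.90 in forestomach), with 1 flox/flox esophagus array, 307, below the highest control. Dnajc3, a co-chaperone that also inhibits the kinase PERK, was at 10.29, 10.19 and 10.35 in control esophagus, 11.04, 10.44, 10.88 and 10.89 in flox/flox esophagus, 10.21, 10.35 and 10.32 in control forestomach and 10.99, 10.52 and 10.83 in the masses and rose by 0.51 (SE 0.10, adjusted p = 0.0254, 0.54 in esophagus and 0.49 in forestomach). The rise was thus near 0.5 in both tissues for Hspa5 and Dnajc3. Pdia4, a protein disulfide isomerase, rose by 0.70 (SE 0.14, adjusted p = 0.0264, 0.61 in esophagus and 0.81 in forestomach), with a blocked p of 0.0513. Creld2, Hyou1 and Xbp1 rose by 0.80, 0.67 and 0.43 (adjusted p = 0.0276, 0.0382 and 0.0378), with blocked p-values of 0.0525, 0.0696 and 0.0691, and of these Xbp1 encodes a transcription factor of the response. Hspa5, Creld2, Hyou1 and Xbp1 were named after their values were seen.

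The list mean of the ER genes was 9.22 to 9.37 in control esophagus, 9.38 in flox/flox 307 and 9.65 to 9.91 in the other flox/flox esophagus arrays. In forestomach it was 9.30 to 9.39 in controls and 9.62 to 9.95 in the masses. With the animal as a block 2 of the 7 calls were kept, Hsp90b1 and Dnajc3, and with sex as a covariate none was (limma, with 14 of 26 at an unadjusted p under 0.05). The number called was 13 after quantile normalization, 11 without mass 426, 15 without esophagus 307 and 8 without the 3 esophagus arrays rich in muscle transcripts.

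**Figure D4:**
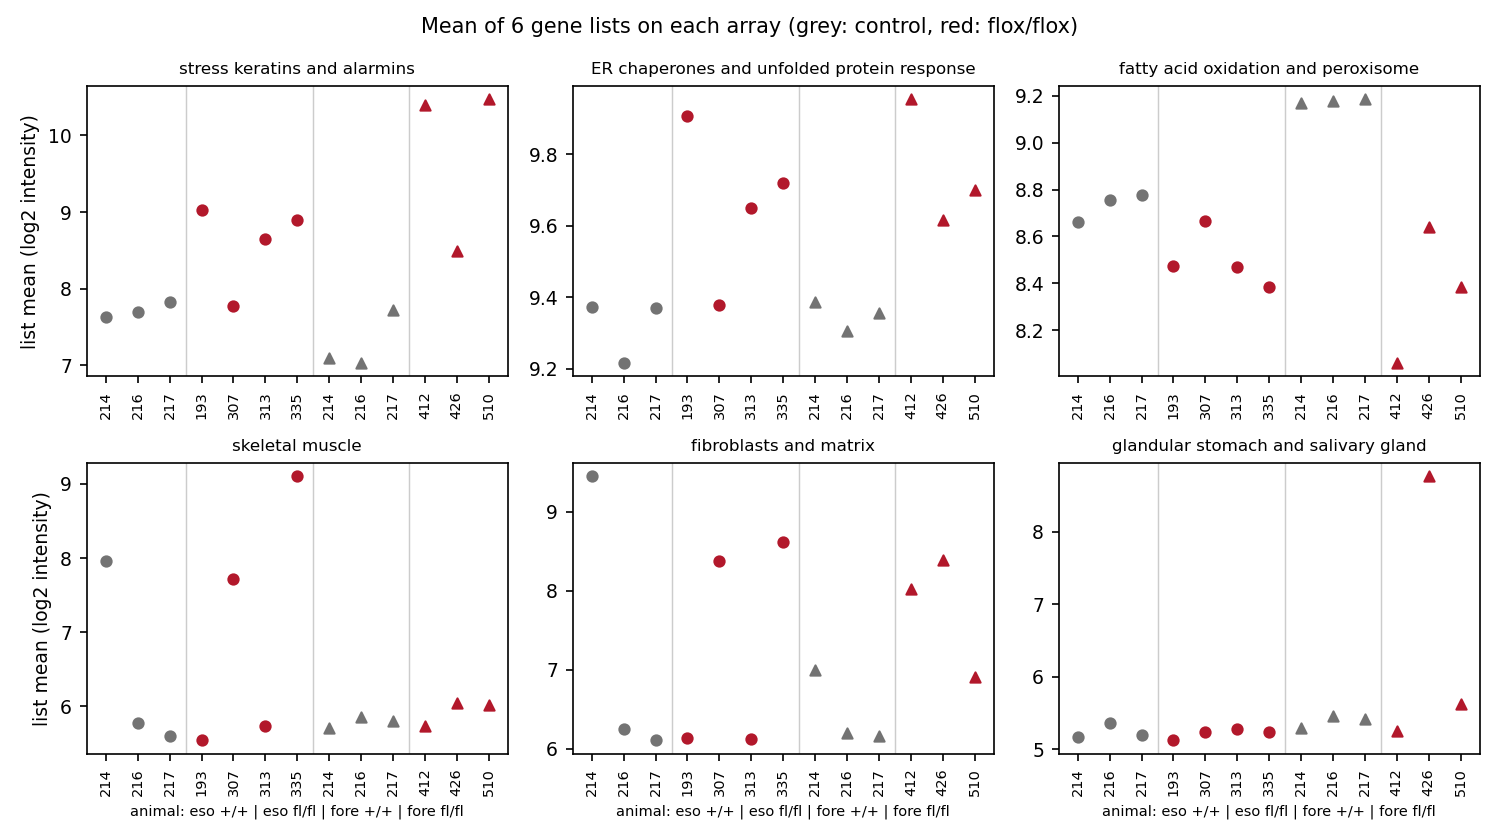
The mean log2 intensity of the genes in each of 6 lists is plotted for each array, labelled by animal, with control arrays in grey and flox/flox arrays in red, circles for esophagus and triangles for forestomach. Stress keratins and ER genes are higher and fatty acid oxidation genes lower in most flox/flox arrays with 307 near the controls, while muscle and fibroblast genes follow single arrays.

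The shared falls were led by enzymes that clear aldehydes, esters and other foreign compounds. Of 24 genes of alcohol, aldehyde and retinol metabolism, 4 were called, all lower, and the list median was -0.56. Of 28 cytochromes, esterases and conjugating enzymes, 6 were called, all lower, and the median was -0.57. Aldh1a7 was at 10.93, 10.95 and 10.98 in control esophagus, 7.03, 9.52, 10.10 and 6.65 in flox/flox esophagus, 11.08, 10.96 and 10.85 in control forestomach and 8.29, 8.98 and 8.99 in the masses. Controls lay within 0.06 of one another in esophagus, whereas flox/flox esophagus ranged from 6.65 to 10.10. It fell by 2.43 (SE 0.48, adjusted p = 0.025, -2.63 in esophagus and -2.21 in forestomach). Aldh1a1, which makes retinoic acid from retinal and is close to Aldh1a7 in sequence, fell by 2.47 (SE 0.56, adjusted p = 0.032, -2.17 in esophagus and -2.81 in forestomach), with a blocked p of 0.0592. Aldh3a1, which oxidizes aromatic and lipid aldehydes, fell by 2.11 (SE 0.53, adjusted p = 0.0429, -1.02 in esophagus and -3.35 in forestomach), with a blocked p of 0.0802.

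Among the esterases, Ces1f had the largest shared fall of all named genes, at 6.52, 7.43 and 7.59 in control esophagus, 5.41, 6.05, 5.76 and 5.91 in flox/flox esophagus, 11.39, 11.41 and 11.14 in control forestomach and 4.61, 8.09 and 7.43 in the masses. It fell by 2.90 (SE 0.63, adjusted p = 0.0285, -1.40 in esophagus and -4.61 in forestomach), with a blocked p of 0.0584. Ces2e, another carboxylesterase, was at 8.40, 8.33 and 8.51 in control esophagus, 7.27, 7.87, 7.82 and 6.96 in flox/flox esophagus, 7.22, 7.72 and 7.60 in control forestomach and 6.19, 6.70 and 6.54 in the masses. The groups lay apart by 0.46 in esophagus and by 0.52 in forestomach, and it fell by 0.98 (SE 0.15, adjusted p = 0.0133, -0.93 in esophagus and -1.04 in forestomach). The call of Ces2e held with the block and without any single array. In the list of cytochromes and esterases that was the only call kept with the block, and in the aldehyde list it was Aldh1a7. Without flox/flox esophagus 307 the aldehyde list had 10 calls and the list of cytochromes and esterases 9, all lower. Without the 3 esophagus arrays rich in muscle transcripts these were 7 and 6. With sex as a covariate limma called none of the aldehyde list, where 15 genes had an unadjusted p under 0.05, and 1 of the cytochromes and esterases.

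Glutathione enzymes were also among the falls. Of 30 genes in the list of glutathione and NRF2 targets, 7 were called, all lower, and 4 of these also with the animal as a block (Gclm, Gstm1, Gstm2 and Gstm3). With sex as a covariate 1 was called. Gstm1, a glutathione S-transferase of the mu class, was at 11.49, 11.58 and 11.53 in control esophagus, 10.41, 11.31, 10.96 and 10.52 in flox/flox esophagus, 12.06, 12.09 and 12.06 in control forestomach and 9.63, 10.74 and 10.38 in the masses and fell by 1.24 (SE 0.23, adjusted p = 0.0217, -0.73 in esophagus and -1.82 in forestomach). Its controls were nearly level in each tissue, and all flox/flox arrays were lower. Gstm2 was at 10.05, 10.03 and 10.30 in control esophagus, 8.72, 9.71, 9.42 and 8.65 in flox/flox esophagus, 9.22, 9.10 and 9.13 in control forestomach and 8.01, 8.59 and 7.80 in the masses and fell by 1.01 (SE 0.18, adjusted p = 0.0169, -1.0 in esophagus and -1.02 in forestomach). Gclm, the modifier subunit of the enzyme for the limiting step of glutathione synthesis, was at 9.96, 10.28 and 10.32 in control esophagus, 9.70, 9.46, 9.43 and 9.68 in flox/flox esophagus, 9.77, 9.85 and 9.73 in control forestomach and 9.48, 9.38 and 9.16 in the masses and fell by 0.54 (SE 0.09, adjusted p = 0.015, -0.62 in esophagus and -0.44 in forestomach). Gstm4, which is in no list and was named after its values were seen, fell by 0.93 (SE 0.15, adjusted p = 0.0133, -0.72 in esophagus and -1.17 in forestomach). Nqo1 and Gclc, textbook targets of the factor NRF2, had differences of -1.10 (adjusted p = 0.0641) and -0.54 (0.18) that did not pass the test. The mu-class genes are close in sequence and their probes may share signal.

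Enzymes and import factors of the peroxisome and of fatty acid oxidation formed the largest group of called genes among the lists. Of 33 tested, 13 were called, all lower, 31 had an average difference below 0, 25 of them in both tissues, and the median was -0.46. Pex13, part of the machine that imports enzymes into the peroxisome, was at 8.50, 8.57 and 8.71 in control esophagus, 8.11, 8.39, 8.15 and 7.88 in flox/flox esophagus, 9.27, 8.93 and 9.01 in control forestomach and 7.55, 7.95 and 7.996 in the masses and fell by 0.82 (SE 0.15, adjusted p = 0.0179, -0.46 in esophagus and -1.24 in forestomach). Hadh, a mitochondrial dehydrogenase of beta-oxidation, was at 11.23, 11.19 and 11.36 in control esophagus, 10.72, 11.09, 11.02 and 10.76 in flox/flox esophagus, 11.67, 11.51 and 11.65 in control forestomach and 10.28, 10.88 and 10.72 in the masses and fell by 0.65 (SE 0.13, adjusted p = 0.0264, -0.36 in esophagus and -0.98 in forestomach), with a blocked p of 0.0525. Acox2, a peroxisomal oxidase of branched-chain fatty acids and bile acid precursors, was at 9.05, 9.48 and 9.27 in control esophagus, 8.03, 8.73, 8.04 and 7.003 in flox/flox esophagus, 9.23, 9.75 and 9.72 in control forestomach and 5.43, 7.66 and 8.27 in the masses. It fell by 1.84 (SE 0.42, adjusted p = 0.0327, -1.32 in esophagus and -2.45 in forestomach), with a blocked p of 0.0612. The other called members were Abcd3, Acaa1b, Decr1, Decr2, Hadha, Hadhb, Hsd17b4, Pex3, Pex5 and Ppara, the last a nuclear receptor that activates such genes.

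In that list 6 of the 13 falls were shared without overlap, and 1 was called with the animal as a block, Pex13. Over all genes tested 345 of the 601 called falls were shared without overlap, and 130 were called with the block. Neither share was thus higher in the list than over all genes. The list mean was 8.66 to 8.78 in control esophagus and 8.39 to 8.66 in flox/flox esophagus, where 307 was the highest, and 9.17 to 9.19 against 8.06 to 8.64 in forestomach. With sex as a covariate none of the 33 was called in limma, 21 had an unadjusted p under 0.05, and the median was -0.41. Without the 3 esophagus arrays rich in muscle transcripts 14 were called, and without mass 426 there were 11.

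Other lipid enzymes were among the largest falls. Acsm3, an acyl-CoA synthetase of medium-chain fatty acids, was at 6.38, 6.85 and 6.88 in control esophagus, 4.15, 5.29, 4.99 and 4.24 in flox/flox esophagus, 8.95, 9.09 and 9.18 in control forestomach and 4.68, 7.70 and 6.99 in the masses and fell by 2.31 (SE 0.40, adjusted p = 0.0161, -2.04 in esophagus and -2.62 in forestomach). Far2, which reduces fatty acyl-CoA to fatty alcohols, was at 8.41, 8.67 and 8.83 in control esophagus, 5.86, 8.12, 7.64 and 5.72 in flox/flox esophagus, 8.69, 9.35 and 9.03 in control forestomach and 5.09, 6.43 and 6.98 in the masses and fell by 2.29 (SE 0.43, adjusted p = 0.0221, -1.80 in esophagus and -2.86 in forestomach). In flox/flox esophagus 193 and 335 were lowest for both genes and for Aldh1a7 and Gstm2. Of 23 genes of barrier lipids, 3 were called, all lower, Cyp4f39, Pnpla1 and Sgpl1. With the animal as a block none of the 23 was called in limma and 11 had an unadjusted p under 0.05, with a blocked p of 0.0513 for Cyp4f39 and 0.0682 for Pnpla1. Without flox/flox esophagus 307 there were 6 calls, and with sex as a covariate none in limma, with 10 at an unadjusted p under 0.05. Sgpl1, which breaks down sphingosine phosphate, fell by 0.997 (SE 0.23, adjusted p = 0.0322, -0.53 in esophagus and -1.53 in forestomach), with a blocked p of 0.0638. The list median was -0.02 for the respiratory chain (2 of 35 called higher and 2 lower) and -0.16 for fatty acid synthesis and elongation (1 of 23 higher and 2 lower).

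**Figure D5:**
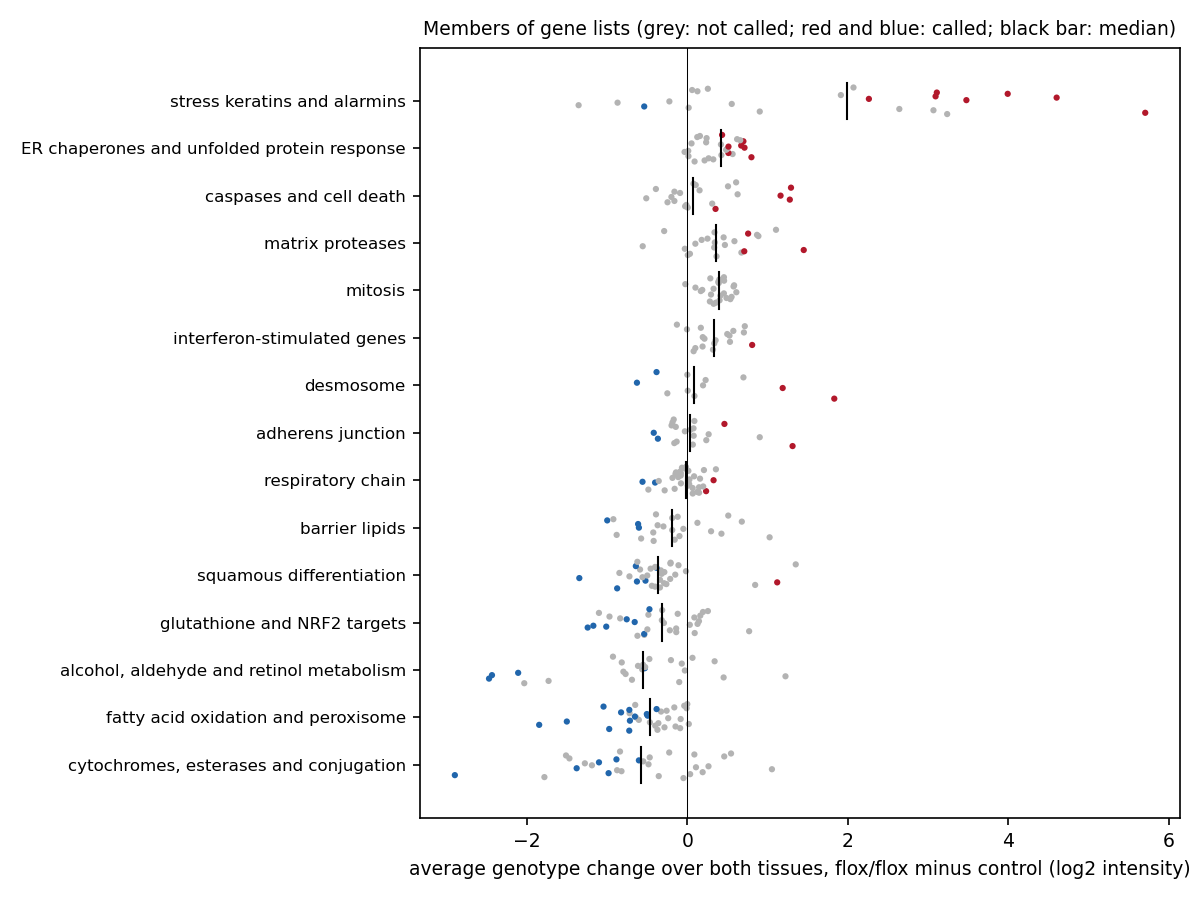
Each point is a gene of 1 of 15 lists, placed by its average genotype change over both tissues in log2 intensity, red or blue where called higher or lower and grey where not called, with the list median as a black bar. The medians run from 1.99 for stress keratins and alarmins to -0.57 for cytochromes, esterases and conjugation.

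Some genes of squamous differentiation were lower. Of 32 differentiation genes tested, 1 was called higher (Elf3, an epithelial transcription factor, blocked p of 0.0826) and 6 lower, 29 had a difference below 0 in both tissues, and the median was -0.36. Calm4, a calmodulin-like protein of differentiating keratinocytes, was at 12.12, 12.26 and 12.30 in control esophagus, 11.19, 11.73, 11.70 and 10.87 in flox/flox esophagus, 11.30, 11.06 and 10.96 in control forestomach and 9.93, 9.92 and 10.78 in the masses and fell by 0.87 (SE 0.17, adjusted p = 0.0235, -0.85 in esophagus and -0.90 in forestomach). Grhl3, a transcription factor needed for the epidermal barrier, fell by 0.52 (SE 0.13, adjusted p = 0.0393, -0.45 in esophagus and -0.60 in forestomach), with a blocked p of 0.0703. With the animal as a block Calm4 alone was called, and without mass 426 the list had 1 call. Without flox/flox esophagus 307 there were 2 higher and 9 lower calls. With sex as a covariate none was called in limma, and 15 had an unadjusted p under 0.05.

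Slurp2, a secreted Ly6 protein made by squamous epithelium, was at 10.37, 10.27 and 10.46 in control esophagus, 7.21, 8.92, 8.50 and 6.92 in flox/flox esophagus, 11.64, 11.76 and 11.82 in control forestomach and 7.91, 10.14 and 10.48 in the masses. The highest flox/flox array lay 1.36 below the lowest control in esophagus and 1.16 below it in forestomach, and it fell by 2.36 (SE 0.41, adjusted p = 0.0161, -2.48 in esophagus and -2.23 in forestomach). Its relative Slurp1, named after its values were seen, fell by 1.56 (SE 0.38, adjusted p = 0.0378, -2.04 in esophagus and -1.001 in forestomach), with a blocked p of 0.0693. Serpinb7, a serpin of the epidermis and other epithelia, fell by 2.14 (SE 0.47, adjusted p = 0.0293, -1.24 in esophagus and -3.17 in forestomach), with a blocked p of 0.0586. Igfbp2, which binds insulin-like growth factors, was at 9.45, 9.68 and 9.39 in control esophagus, 6.53, 8.86, 9.16 and 7.53 in flox/flox esophagus, 10.20, 10.07 and 10.04 in control forestomach and 6.64, 7.97 and 8.01 in the masses and fell by 1.99 (SE 0.41, adjusted p = 0.0264, -1.49 in esophagus and -2.56 in forestomach), with a blocked p of 0.0525. Cldn23, a claudin of the tight junction, was at 7.29, 7.23 and 7.45 in control esophagus, 6.10, 6.86, 6.52 and 6.23 in flox/flox esophagus, 8.13, 8.17 and 8.06 in control forestomach and 5.62, 6.58 and 6.93 in the masses and fell by 1.29 (SE 0.22, adjusted p = 0.0161, -0.90 in esophagus and -1.74 in forestomach). Glb1l2, related to beta-galactosidase, fell by 1.71 (SE 0.29, adjusted p = 0.0161, -1.29 in esophagus and -2.18 in forestomach), and Phf24 by 1.62 (SE 0.29, adjusted p = 0.0179, -1.09 in esophagus and -2.23 in forestomach).

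In the lists of Notch, Wnt and immediate early genes, 2, 1 and 1 genes were called, all lower (10%, 3.33% and 4.55%). Over all genes tested 3.79% were called lower. Hes1 and Nrarp, transcriptional targets and regulators of Notch, were the 2 called of 20 genes of the Notch pathway, both lower. Hes1 was at 9.66, 9.72 and 9.82 in control esophagus, 9.38, 9.45, 9.29 and 9.18 in flox/flox esophagus, 9.71, 9.49 and 9.35 in control forestomach and 8.77, 9.05 and 8.66 in the masses and fell by 0.54 (SE 0.09, adjusted p = 0.0161, -0.41 in esophagus and -0.69 in forestomach). Nrarp fell by 0.59 (SE 0.12, adjusted p = 0.0268, -0.52 in esophagus and -0.68 in forestomach), with a blocked p of 0.0525. Wnt7b, a Wnt ligand of epithelium, was the only call among 30 Wnt ligands and beta-catenin targets and fell by 0.80 (SE 0.16, adjusted p = 0.0266, -0.70 in esophagus and -0.91 in forestomach), with a blocked p of 0.0513. Egr1, an early response transcription factor, was at 7.35, 8.65 and 8.03 in control esophagus, 6.39, 7.31, 7.09 and 7.32 in flox/flox esophagus, 9.09, 8.90 and 7.91 in control forestomach and 7.37, 7.19 and 6.93 in the masses, with controls spread widely in esophagus. The highest flox/flox array there, 335, lay 0.02 below control 214. It fell by 1.21 (SE 0.25, adjusted p = 0.0268, -0.98 in esophagus and -1.47 in forestomach), with a blocked p of 0.0542, and was the only call of 22 immediate early genes.

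A few called genes differed between the tissues in size. The difference of the genotype effects was called for 22 of 15875 genes (0.139%), and 1 of these was shared, Tspyl4. Dsc2, the desmosomal partner of Dsg3, was at 12.15, 11.94 and 11.88 in control esophagus, 12.44, 12.14, 12.54 and 12.67 in flox/flox esophagus, 8.28, 8.53 and 8.83 in control forestomach and 12.54, 11.41 and 11.90 in the masses. It rose by 1.83 on average (limma adjusted p = 0.0376), with a blocked p of 0.0775. The difference was 0.46 in esophagus, where control 214 lay within the flox/flox range, and 3.40 in forestomach. These changes differed by 2.95 (limma adjusted p of the difference 0.0039). Of 11 desmosome genes tested, 2 were called higher and 2 lower in the average effect, with a list median of 0.09. Tspyl4 fell by 0.16 in esophagus and by 1.08 in forestomach, a difference of -0.92 (adjusted p of the difference 0.0495), and its average change had a blocked p of 0.0835. A p above the threshold for other genes does not show that their changes were equal.

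Lists of dividing cells and of other cell types had no or single calls. None of 24 mitosis genes was called in limma, although 23 had a difference above 0 and the median was 0.40, and 7 of them had an unadjusted p under 0.05. None of 26 skeletal muscle genes, 19 fibroblast and matrix genes or 12 T and NK cell genes was called (0, 0 and 1 at an unadjusted p under 0.05). In several other lists most genes had a difference above 0 that did not pass the test. All 9 genes of MHC class II presentation had a difference above 0, with a median of 0.87 and 5 at an unadjusted p under 0.05 in limma, and none was called. Of 14 macrophage and monocyte genes, 13 were above 0 with a median of 0.47, none was called and 3 had an unadjusted p under 0.05. All 10 smooth muscle genes were above 0 with a median of 0.81, none was called and 1 had an unadjusted p under 0.05. Of 15 endothelial genes, 14 were above 0 with a median of 0.66, and 1 was called, Pdpn, with a blocked p of 0.0785. Without the 3 esophagus arrays rich in muscle transcripts, 12 of the 19 fibroblast genes had an unadjusted p under 0.05 and none was called in limma, while 10 of the 14 macrophage genes did and 2 were called, and 3 of the 9 MHC class II genes were called. The part of these cell types in the called changes was not tested. The list mean of skeletal muscle was 7.96, 7.72 and 9.10 in the esophagus of control 214 and flox/flox 307 and 335, against 5.54 to 5.78 on the other esophagus arrays, and that of fibroblasts was 9.45, 8.38 and 8.62 against 6.11 to 6.25. Fibroblast genes averaged 8.02, 8.39 and 6.92 in the masses, against 6.999, 6.20 and 6.16 in control forestomach, and genes of glandular stomach stood at 8.76 in mass 426 alone. Without the 3 muscle-rich esophagus arrays, 235 genes were called higher and 228 of them were shared, but non-overlap is easier to meet with fewer arrays. With the fibroblast mean as a covariate 99 genes were called higher and 325 lower. In such bulk samples fewer cells of a type and less RNA per cell cannot be told apart.

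The floxed allele can carry linked alleles of either parental strain. Of the 100 tested genes nearest to Ctnnd1, 50 on each side in the RefSeq gene order, 5 were called (5%), against 1.17% higher and 3.79% lower over all genes. They were Gpr155 and Ptprj, higher, and 1110051M20Rik, Kbtbd4 and Ttc30b, lower. None of the 5 was called with the animal as a block (blocked p from 0.0637 to 0.0805).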

How the data were processed

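Epithelium was freed with dispase, its RNA extracted and labelled with biotin, and hybridised to a mouse whole-transcript Affymetrix array, per the labels' protocols. The deposited values are linear intensities made by the authors with GCRMA, per the submitters' processing notes, with no version given in the sources used here. Arrays had similar medians (65.3 to 72.4), and precision is limited by how few there are. Their linear scale was taken from the range of the values, whether they were centred or scaled further was not stated, and scanner files were not used here.

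Values were floored at 1 and put on the log2 scale. Of 34729 probe sets, 21633 have 1 gene, 1306 several and 11790 none in the platform annotation, which can be old. For each of 19934 genes the probe set with the highest mean was kept, and 15875 genes above log2 5 on at least 3 arrays were tested, while 4059 fell below that level. limma 3.58.1 in R 4.3.3 (lmFit, eBayes) was fitted to tissue and genotype with 10 residual degrees of freedom, and p-values were adjusted by Benjamini-Hochberg over all genes tested. A second fit of 4 group means gave the effects within a tissue and their difference. The animal as a random block used duplicateCorrelation (correlation 0.249), since the control animals gave both tissues. The fit was tested on simulated data. The settings varied were the filter, probe set choice, normalization, floor, block, covariates and arrays left out.

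The arrays used, the gene lists and the rule for named genes were chosen with earlier results of these data known. The rule names Ctnnd1 and 7 sentinel genes, the 12 largest shared rises and falls, the 6 genes with the smallest larger p, up to 3 called genes of each list by adjusted p, and up to 4 called genes with the smallest p for the difference between tissues. It skips predicted and RIKEN genes. Other genes were named after their values were seen, among them the Ctnnd1 neighbours, the remaining called members of lists, and the genes with the promoter element. The result of 1 gene list is not reported here.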

Additional observations from a re-analysis of the deposited data

Results flagged for a closer look

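The genotype effect differed between the tissues for 2 of the 99 named genes, by limma's test of the difference itself over all 15875 genes. Dsc2 rose by 2.95 more in forestomach than in esophagus on the log2 scale (adjusted p = 0.0039), and all 3 masses and all 3 controls of the forestomach lay on their own side. Tspyl4 differed by -0.92 (adjusted p = 0.0495), with a lower level in all 7 flox/flox arrays and a larger fall in forestomach. Among the 99 named genes, no array of flox/flox esophagus stood apart from the other 3 beyond Dixon's critical value, which chance exceeds in about 1 of 20 groups.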

How the results depend on the processing

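All 92 named genes that were called kept their direction under every setting that tested them (the stricter filter left 88 of them). These genes were chosen from the same arrays that the settings reuse. Their direction was thus largely fixed by that choice and is no independent support. Counts of calls moved far more. Genes called higher and lower, against 186 and 601, numbered 305 and 915 with the stricter filter (fewer genes tested), 365 and 1173 in the fit of 4 group means, 25 and 130 with the animal as a replicate block, 11 and 38 with sex as a covariate, and 99 and 325 with the fibroblast mean as a covariate. They numbered 0 and 0 for esophagus arrays alone (limma, 1465 genes at an unadjusted p under 0.05) and 118 and 334 for forestomach arrays alone. With 1 array per control animal they were 0 and 0 with esophagus 214 kept and 0 and 1 with forestomach 214 kept. With the muscle mean as a covariate 119 genes were called higher. Shared genes, against 92 higher and 345 lower, numbered 22 and 117 with the block, 10 and 38 with sex, 55 and 217 with the fibroblast mean, and 0 and 0 or 0 and 1 with 1 array per control animal. After quantile normalization 163 shared genes were higher, and of all calls 275 were higher and 471 lower (63.1% lower, against 76.4%). Without the 3 muscle-rich esophagus arrays, a setting added after the data were seen, 235 genes were called higher and 228 of them were shared. Non-overlap is easier to meet with fewer arrays. Shared counts from settings that leave arrays out are thus not directly comparable with 92 and 345. Leaving out an array or a control animal gave 0 to 395 genes called higher, 0 to 872 called lower, 0 to 267 shared higher and 0 to 609 shared lower. The cause of these shifts was not tested. Over the 99 named genes and all settings, the call was unchanged in 2141 cases, lost in 1313 and gained in 7, and reversed in none. Of the 92 called, 33 stayed called with the block, 13 with sex and 88 with all probe sets, and 0 without both arrays of control animal 217.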
